A study of Homo sapiens with 16 samples.

Results

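SUM159, a human triple-negative breast cancer line of mesenchymal type, was given palbociclib, indisulam or both drugs, and the expression change under both was set against the sum of the changes under each drug alone. All 8 SUM159 libraries were used, of 16 in the series: UT (untreated), PD (2 µM palbociclib), IN (3 µM indisulam) and P+I (both, at the same doses), with 2 libraries in each group and 16 h of treatment. The line is a single cell line grown with insulin and hydrocortisone, and the duplicates are technical, so every p-value below measures the spread between libraries of one experiment and not between independent cultures. The other 8 libraries, from the lung cancer line A549 under the same 4 conditions, enter only where the departure of SUM159 was tested against that of A549.

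Palbociclib inhibits CDK4 and CDK6, the kinases that start the phosphorylation of RB. With RB unphosphorylated, the E2F factors are held in check. The genes of mitosis are kept silent through a separate complex, DREAM. Indisulam joins the splicing factor RBM39 to the DCAF15 ubiquitin ligase, so that RBM39 protein is degraded and splicing of many transcripts is disturbed. The study looked for partners of palbociclib in such tumours, and this experiment read the transcriptome under the pair. For each gene, the measure here is the departure: the log2 change of P+I against UT, minus that of PD, minus that of IN. A departure of 0 means that the fold changes of the single drugs multiply in the combination. A gene was called where edgeR's quasi-likelihood test gave a Benjamini-Hochberg adjusted p under 0.05 over all genes tested.

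Called genes were put in classes by the sign of what the 2 drugs gave singly, added on the log2 scale. A gene lowered or raised beyond the sum has a departure of the same sign as that sum, and a gene short of it has the other sign. Genes whose sum was under 0.25 in size had no clear sum. Untreated, PD and IN libraries enter both the sum and the departure with opposite signs. Their noise alone can therefore make genes look short of the sum, and the classes are descriptions with no test of their own. In whole cultures, fewer cells of a type and less RNA per cell cannot be told apart.

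The 6 protein-coding genes lowered furthest beyond the sum were KIF14, PSMC3IP, POLQ, HJURP, C5orf34 and TOP2A, most of them genes of chromosome segregation or DNA repair. The promoters of 3 of them are printed here to show windows with many and with few copies of 2 motifs that part of the class carries: those of TOP2A and HJURP held the most copies among the 6, and that of KIF14, the gene of largest departure, held few. Each sequence is the RefSeq stretch of 250 bases before the transcription start, 5′ to 3′ on the gene's strand, from GRCh38.p14. Capitals mark the cell cycle homology region (CHR), the site where DREAM and the B-MYB and FOXM1 complexes sit, searched as TTTGAA or TTCGAA on both strands, and the CCAAT box, the site of the factor NF-Y, searched as CCAAT on both strands, so that TTCAAA and ATTGG are the reverse matches. The motifs do not overlap each other in these windows.

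TOP2A (chr17:40417897-40418146, minus strand): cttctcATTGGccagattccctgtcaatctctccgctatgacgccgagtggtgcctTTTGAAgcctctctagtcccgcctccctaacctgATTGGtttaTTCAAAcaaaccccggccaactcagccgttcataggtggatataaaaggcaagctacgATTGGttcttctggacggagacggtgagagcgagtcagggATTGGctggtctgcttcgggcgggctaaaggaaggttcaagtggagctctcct

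HJURP (chr2:233854536-233854785, minus strand): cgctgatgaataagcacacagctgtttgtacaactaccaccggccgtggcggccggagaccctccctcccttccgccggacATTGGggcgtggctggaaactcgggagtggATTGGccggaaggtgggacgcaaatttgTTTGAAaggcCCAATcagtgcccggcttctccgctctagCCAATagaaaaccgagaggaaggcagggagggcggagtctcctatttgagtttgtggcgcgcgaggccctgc

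KIF14 (chr1:200620752-200621001, minus strand): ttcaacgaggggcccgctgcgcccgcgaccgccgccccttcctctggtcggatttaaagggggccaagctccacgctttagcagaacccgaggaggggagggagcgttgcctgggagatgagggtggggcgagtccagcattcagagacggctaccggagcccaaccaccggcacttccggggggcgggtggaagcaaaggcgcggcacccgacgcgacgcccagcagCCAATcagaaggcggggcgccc

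The TOP2A window held 2 CHR and 4 CCAAT matches, the HJURP window 1 and 4, and the KIF14 window 0 and 1. Of the windows not printed, C5orf34 had 1 of each, POLQ 1 CHR and 0 CCAAT, and PSMC3IP 0 CHR and 1 CCAAT. Of the 104 genes called as lowered beyond the sum, all protein-coding, 84 had a RefSeq promoter. CHR letters were found in 28.6% of those, against 9.37% of the promoters of all 10592 tested protein-coding genes that had one. CCAAT letters were in 64.3% against 35.5%, both motifs in 20.2% against 3.99%, and an E2F motif (TTTCCCGC, TTTGGCGC, TTTCGCGC or TTTGCCGC, both strands) in 13.1% against 4.62%. The 132 promoters of genes raised short of the sum held CHR in 9.09% and CCAAT in 36.4%, close to the shares over all genes. Fewer than 80% of the genes raised beyond the sum or lowered short of it had a promoter sequence, so the check was void for them. A match says only that the letters are present. The 104 genes had a median log2 change of -1.24 with palbociclib alone, and no set lowered alike without a called departure was compared. The shares can therefore not be tied to the departure itself.

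The libraries held 21926985 to 33310006 counts in genes, at which 3 counts correspond to 0.0901 to 0.137 CPM (counts-per-million). The mesenchymal markers VIM, FN1 and CD44 lay above 1000 CPM in every library, and the epithelial and hormone receptor genes EPCAM, CDH1, CLDN3, ESR1 and PGR stayed under 1 CPM. Other epithelial genes were present, the keratins KRT8 at 523 to 807 CPM and KRT18 at 343 to 428 CPM and the luminal factor GATA3 at 4.68 to 6.61 CPM. ERBB2 was present at 92.8 to 152 CPM. Among 14 markers of other cell types, PECAM1 at 16.6 to 40.7 CPM, PTPRC at 2.99 to 4.62 CPM and CD14 at 0.912 to 3.03 CPM were present. The rest stayed under 1 CPM, with CD3E, ALB, HBB and SFTPC at or near 0. The summed level of the 14 was 22 to 24 CPM in UT, 30.2 to 31.5 in PD, 33 to 35.4 in IN and 46 to 49.4 in P+I. Its part in the results was not tested. One library stood apart: UT replicate 2 had 17426 CPM in the 13 genes encoded in mitochondrial DNA, against 33333 in UT replicate 1 and 41912 to 58044 in the 6 treated libraries.

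Each drug alone changed a large share of the transcriptome, and a departure was called for a small one. Of 16080 genes tested, palbociclib raised 4101 (25.5%) and lowered 4660 (29.0%), and indisulam raised 3527 (21.9%) and lowered 4011 (24.9%). The departure was called for 704 genes (4.38%), 357 with the combination above the sum (2.22%) and 347 below it (2.16%). The median departure of all genes was -0.00358, the quartiles were -0.155 and 0.125, and 13.5% of genes departed by more than 0.5 in size. The standard error had a median of 0.112. Departures of called genes ranged from 0.178 to 3.63 in size, with a median of 0.365. All 704 had the same sign in the replicate 1 libraries as in the replicate 2 libraries, which the test itself favours.

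The split between above and below depended on scaling. With the mitochondrially encoded genes left out before scaling, 864 genes were called, 535 above and 329 below. Leaving out a single library gave between 207 called genes, without IN replicate 2, and 941, without PD replicate 2. The count fell to 278 without UT replicate 2, to 267 without P+I replicate 2 and to 326 without IN replicate 1, and it was 409 without UT replicate 1 and 463 without P+I replicate 1.

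**Figure D1:**
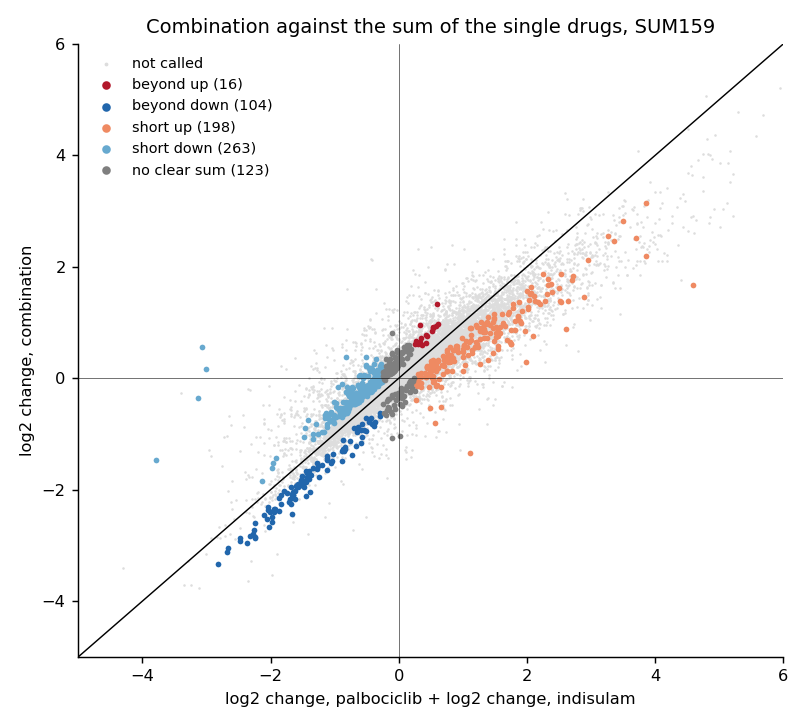
Each point is a gene in SUM159, with the sum of the palbociclib and indisulam log2 changes on the horizontal axis and the log2 change of the combination on the vertical axis. Grey points were not called, coloured points are the 704 called genes by class, the line marks equality, and 8 genes lie outside the range drawn. Called genes at the lower left (blue, 104) lie under the line, and those at the right (orange, 198) lie under it as well, so the combination lowered the former further and raised the latter less than the sum.

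Among called genes, being short of the sum was more common than going beyond it, as it was among all tested genes. Noise in the UT, PD and IN libraries can give such an excess, and its part was not tested. The excess is therefore not read as a result about the drugs. Of the called genes 198 were raised short of the sum and 263 lowered short of it, while 104 were lowered beyond it, only 16 were raised beyond it and 123 had no clear sum. As shares of the tested genes with such a sum and departure, these were 4.65% of 4259, 6.99% of 3761, 6.39% of 1627 and 1.03% of 1553, beside 4.38% over all genes. Among the 198, the combination change was smaller than that of the stronger single drug in 140 and of the opposite sign to the sum in 21. Among the 263 these numbers were 228 and 41. The classes are of log2 values, and on the linear CPM scale the departure had the same sign in 195 of 198, 261 of 263 and 15 of 16, but in 60 of the 104 genes lowered beyond the sum. In the remainder of the 104, the combination took away a larger share of the palbociclib level than indisulam took from the untreated level, but no more CPM than the single drugs together.

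Called departures were also counted by the single-drug calls. Among the 1317 genes called higher with both drugs, 128 were below the sum (9.72%) and 2 above it, and the 128 had median changes of 0.75 with palbociclib, 0.68 with indisulam and 0.84 with both. Among the 1824 called lower with both, 133 were above the sum (7.29%), with medians of -0.41, -0.27 and -0.37. In the same set, 69 were below it (3.78%), with medians of -1.32, -0.28 and -2.10. Where palbociclib raised and indisulam lowered a gene (899 genes), 59 were above the sum and 17 below, and in 44 of the 59 the combination was nearer to palbociclib alone than to the sum. Of 4549 genes called with neither drug, 18 were above and 10 below.

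Of the gene lists examined, that of mitosis held the most called departures. Of 55 tested genes on a list of mitotic and FOXM1-regulated genes, palbociclib lowered 55 (against 29.0% of all genes). Indisulam lowered 36 (against 24.9% of all genes) and raised 3 (against 21.9%), and the combination lowered all 55 (background over all genes 33.1%). The combination was below the sum in 28 (50.9%, against 2.16% of all genes) and above it in 0. The departure was negative in 49 of 55 and had a median of -0.26, with called values from -0.77 to -0.22, beside a median of -0.00358 over all genes. It was negative in both replicate numbers for 42. Leaving out any 1 library left 21 to 29 called below the sum. On the linear scale only 16 of the 55, and 11 of the 28, were below the sum.

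TOP2A, the topoisomerase that untangles sister chromatids, stood at 824 and 871 CPM in UT, 281 and 281 in PD, 539 and 548 in IN and 114 and 117 in P+I. The P+I libraries lay below all others, and below the 180 CPM that the log2 sum gives. Its departure was -0.64 ± 0.05 (SE, n = 2 per group, edgeR adjusted p = 1.53e-05). In CPM, the combination took away less TOP2A than the single drugs together. KIF14, a kinesin of the midbody needed for cytokinesis, read 77.0 and 77.6 CPM in UT, 28.6 and 28.6 in PD, 65.8 and 66.2 in IN and 14.1 and 14.5 in P+I. The sum gives 24.4 CPM, so the combination left 58.6% of that level (departure -0.77 ± 0.07, edgeR adjusted p = 9.83e-05). CDK1, the kinase that starts mitosis, had 150 and 154 CPM in UT, 59.7 and 53.7 in PD, 129 and 126 in IN and 31.7 and 32.0 in P+I (departure -0.57 ± 0.07, edgeR adjusted p = 0.000431). The groups of these 3 genes did not overlap, and indisulam alone moved each much less than palbociclib did.

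The other 25 mitosis genes below the sum were CDCA8, CENPI, AURKB, CCNA2, NUF2, NCAPH, TTK, ASPM, UBE2C, GTSE1, KIF11, KIF20B, SMC4, KIF4A, MAD2L1, KIF2C, ANLN, NDC80, PLK1, AURKA, BUB1B, CENPE, LMNB1, BIRC5 and RACGAP1, named here to complete the count. They include both Aurora kinases, the kinesins of the spindle and the NDC80 and NUF2 subunits of the kinetochore. Not all parts of the programme departed. FOXM1, the factor behind much of it, changed by -1.64 with palbociclib, -0.23 with indisulam and -1.92 with both, a departure of -0.05 (edgeR adjusted p = 0.677). CCNB1 and CCNB2, the cyclins that pair with CDK1, had departures of -0.03 and 0.02, and CDC20, an activator of the anaphase-promoting complex, one of -0.04, none of them called. These 4 were picked after their values were seen.

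HJURP, the chaperone that loads the centromeric histone CENP-A, is on neither cell cycle list but ranked among the 6 largest genes of its class. Its levels were 68.7 and 69.8 CPM in UT, 24.9 and 25.8 in PD, 46.0 and 47.2 in IN and 11.4 and 10.3 in P+I, against 17.1 CPM from the sum. Its departure was -0.65 ± 0.09 (edgeR adjusted p = 0.000864). In CPM, the combination took away less HJURP than the single drugs together. The class also held PSMC3IP (departure -0.67), a cofactor of homologous recombination, POLQ (-0.66), the polymerase of microhomology-mediated end joining, and C5orf34 (-0.64). C5orf34 had 19.97 and 20.5 CPM in UT, 16.4 and 14.3 in PD, 16.6 and 15.6 in IN and 7.73 and 7.84 in P+I. Its single-drug changes were small, -0.40 and -0.33, and both P+I values lay under the 12.2 CPM of the sum. Of the 104 genes, 40 were on the mitosis list or the list of E2F and S-phase genes, which hold 55 and 59 of the 16080 genes tested. The 104 had a median palbociclib change of -1.24, and genes lowered alike without a called departure were not compared.

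Of 53 called genes named by rule, 21 kept the call, an adjusted p under 0.05, under each alternative fit they entered: TOP2A, KIF14, HJURP, CDK1, PSMC3IP, POLQ, C5orf34, CLSPN, BRCA2, CCNG2, LTB4R, PABPC1L, MT-ND6, CLK4, CRTC1, EGFR, SLC7A5, F3, DUSP6, ABCC2 and IFIT2. The other 32 lost it under at least 1, mostly when a library was left out, with adjusted p up to 0.233, and none changed direction. A minimum departure of 0.5 in size, tried for the counts over all genes, is not among these fits, and DUSP6, SLC7A5, F3, ABCC2 and IFIT2 departed by less than that.

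**Figure D2:**
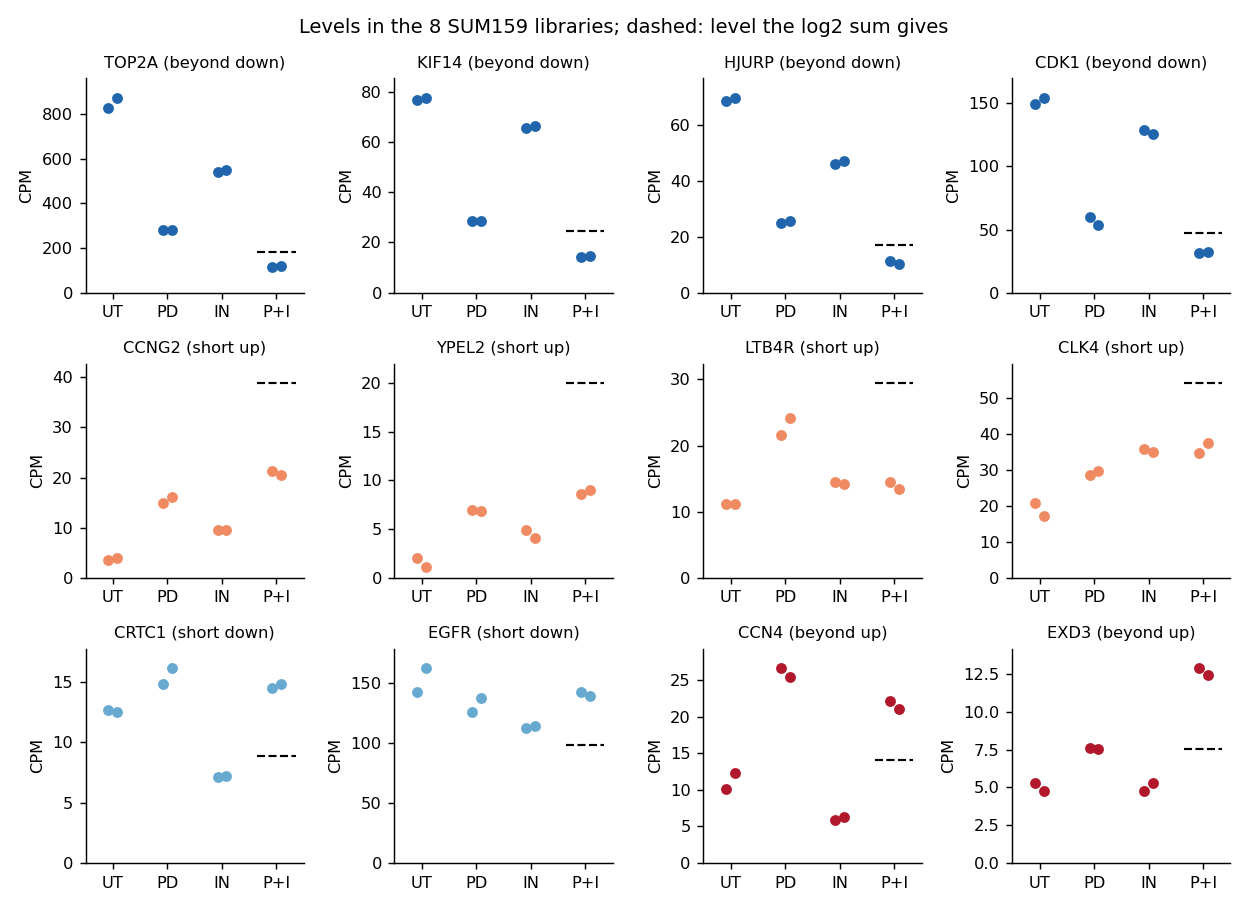
CPM of 12 genes (vertical axes, linear and starting at 0) in the 8 SUM159 libraries, with each point a library, UT, PD, IN and P+I on the horizontal axis, and a dashed line at the level that the log2 sum of the single drugs gives for P+I. Both P+I points lie under the line for TOP2A, KIF14, HJURP, CDK1 and the 4 genes raised short of the sum, and above it for CRTC1, EGFR, CCN4 and EXD3.

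Of 59 tested E2F and S-phase genes, 12 were below the sum (20.3%, against 2.16% of all genes) and 2 above it (3.39%, against 2.22%), with 41 negative departures and a median of -0.09. The 12 fell to 7 without IN replicate 2, 6 without P+I replicate 1 and 5 without P+I replicate 2, and the 2 fell to 1 without UT replicate 1 and to 0 without either IN library or P+I replicate 2. CCNE2, a cyclin that activates CDK2, fell from 28.7 and 29.1 CPM in UT to 8.78 and 8.16 in PD, 21.02 and 20.9 in IN and 3.81 and 4.18 in P+I (departure -0.62 ± 0.13, edgeR adjusted p = 0.0101). Without P+I replicate 1, its adjusted p was 0.0704. CLSPN, the adaptor that activates the checkpoint kinase CHK1, had 83.2 and 89.8 CPM in UT, 22.6 and 23.5 in PD, 63.4 and 61.8 in IN and 11.1 and 11.3 in P+I (departure -0.58 ± 0.09, edgeR adjusted p = 0.00201). For CCNE2 and CLSPN the linear departure was positive, 3.48 and 12.05 CPM, so only the share removed, not the CPM removed, exceeded what the single drugs gave.

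BRCA2, a gene of homologous recombination, differed from them in that indisulam raised it. It read 43.9 and 43.2 CPM in UT, 21.2 and 23.8 in PD, 52.1 and 53.7 in IN and 19.2 and 18.1 in P+I. The combination was lowest although the sum places it at 27.4 CPM, above PD (departure -0.55 ± 0.09, edgeR adjusted p = 0.00282). The other genes below the sum were RRM2, DSCC1, EXO1, MCM10, CDC6, CDC45, RFC5, CHAF1A and POLE, named to complete the count, and CHAF1B was among those above it.

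Of the 10 genes the study followed, 2 were called, and 9 had a negative departure. RBM39, whose protein indisulam removes, had 230 and 224 CPM in UT, 193 and 191 in PD, 486 and 479 in IN and 389 and 408 in P+I. Its transcript thus rose with indisulam, with or without palbociclib, and the departure of -0.04 ± 0.05 was not called (edgeR adjusted p = 0.777). CCNH, the cyclin of the CDK-activating kinase, had 54.6 and 53.8 CPM in UT, 50.03 and 49.3 in PD, 19.8 and 21.1 in IN and 23.5 and 21 in P+I, with a departure of 0.25 ± 0.09 (edgeR adjusted p = 0.121) and a 95% interval of 0.08 to 0.42, not adjusted for the number of genes. CDK7 and MNAT1, its partners, had departures of -0.0023 and -0.11. Of the 9 genes tested of the CDK-activating kinase and TFIIH, 0 were called, beside 4.38% of all genes. At that share a list of 9 may hold none. CDK2 had -0.17 ± 0.07 (95% interval -0.31 to -0.03, edgeR adjusted p = 0.225), CCNE1 -0.03 and CDKN1A -0.06. The proliferation marker MKI67 had -0.31 ± 0.09 (95% interval -0.49 to -0.12, edgeR adjusted p = 0.0753). It was called below the sum in 4 alternatives: with the filter of at least 1 count in total, with a replicate block in which the numbers of P+I were crossed, without PD replicate 1 and without P+I replicate 1. Over the alternative fits its departure ranged from -0.43 to -0.19 and its adjusted p from 1.54e-05 to 0.404. LMNB1, a nuclear lamina gene that is lost in senescent cells, was below the sum at -0.27 ± 0.06 (edgeR adjusted p = 0.0165). It and CCNE2 were the called genes. The 10 genes were chosen with the study's results known, so they are no independent evidence of a direction. The study's text does not name MNAT1 or CCNE2.

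The genes of largest departure among the 198 raised short of the sum included CCNG2, YPEL2, LTB4R, PABPC1L and EGLN2. CCNG2, a cyclin of quiescent cells, had 3.57 and 4.02 CPM in UT, 14.96 and 16.1 in PD, 9.50 and 9.50 in IN and 21.3 and 20.4 in P+I. The combination was the highest group, but the sum gives 38.9 CPM (departure -0.90 ± 0.14, edgeR adjusted p = 0.00218). Its linear departure was -0.34 CPM. YPEL2, of the yippee family, showed the same order from 1.98 and 1.102 CPM in UT to 8.64 and 9.02 in P+I (departure -1.18 ± 0.25, edgeR adjusted p = 0.0121). This call was lost without UT replicate 2 or without IN replicate 1, with an edgeR adjusted p of at most 0.115.

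LTB4R, the receptor of leukotriene B4, went up with palbociclib and back with both drugs. It read 11.1 and 11.2 CPM in UT, 21.7 and 24.1 in PD, 14.5 and 14.1 in IN and 14.5 and 13.5 in P+I, so the combination overlapped indisulam alone (departure -1.07 ± 0.12, edgeR adjusted p = 0.000195). PABPC1L, a poly(A)-binding protein of germ cells, had 24.4 and 31.9 CPM in PD and 17.7 and 13.7 in P+I, against 14.5 and 12.1 in UT (departure -1.02 ± 0.19). EGLN2, a prolyl hydroxylase that senses oxygen, departed by -1.01 ± 0.20, and the call was lost without UT replicate 2 or without IN replicate 2, with an edgeR adjusted p of at most 0.0706. LTB4R overlaps LTB4R2 and EGLN2 overlaps a read-through transcript with RAB4B on the same strand, so reads could be shared between them.

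Among splicing regulators the called genes included 3 CLK kinases. Of 50 tested, 3 were above the sum (PTBP1, PTBP3 and SF1, 6.0% against 2.22% of all genes) and 4 below it (8.0% against 2.16%), with a median departure of -0.02. The 3 fell to 0 without UT replicate 1, IN replicate 2 or P+I replicate 2 and to 1 without UT replicate 2 or IN replicate 1, and the 4 fell to 1 without UT replicate 2 and 2 without IN replicate 2. CLK4, a kinase that phosphorylates SR proteins, rose from 20.8 and 17.3 CPM in UT to 28.7 and 29.7 in PD, 35.8 and 35.04 in IN and 34.7 and 37.5 in P+I. The combination overlapped indisulam alone, where the sum gives 54.3 CPM (departure -0.59 ± 0.10, edgeR adjusted p = 0.004). CLK1 departed by -0.44 ± 0.09 and CLK2 by -0.40 ± 0.10, and the fourth gene below was SRSF11. The CLK2 call was the weakest, with adjusted p up to 0.160 when a library was left out, and CLK2 overlaps HCN3 on the other strand. UPF1, the helicase of nonsense-mediated decay, was the 1 gene called of 18 on that list (5.56%, against 2.22% of all genes above the sum). It had 149 and 151 CPM in UT, 97.6 and 104 in PD, 156 and 158 in IN and 127 and 127 in P+I (departure 0.26 ± 0.06, edgeR adjusted p = 0.0141). The UPF1 call was lost when some 1 library was left out, and its departure ranged from 0.21 to 0.30 over the alternatives.

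Of the 6 genes with the largest departures among those lowered short of the sum, 4 had their lowest levels with indisulam alone. CRTC1, a coactivator of CREB, read 12.6 and 12.5 CPM in UT, 14.8 and 16.1 in PD, 7.10 and 7.20 in IN and 14.4 and 14.8 in P+I. The P+I levels were about those of PD and well above the 8.85 CPM of the sum (departure 0.72 ± 0.12, edgeR adjusted p = 0.00303). CORO2B, an actin-binding coronin, fell with indisulam to 3.97 and 3.87 CPM from 11.7 and 9.53 in UT, and stood at 9.57 and 10.3 with both drugs (departure 0.79 ± 0.16). SLC25A42, the mitochondrial carrier of coenzyme A, and SH3PXD2A, a scaffold of invadopodia, departed by 0.75 ± 0.19 and 0.67 ± 0.18, and each call was lost under 8 alternatives. GNB1L, a WD-repeat gene, was the highest in the combination, with 6.94 and 8.33 CPM in UT, 5.18 and 5.54 in PD, 7.38 and 7.91 in IN and 10.5 and 9.24 in P+I (departure 0.88 ± 0.16). ZNF865, a zinc finger gene, departed by 0.67 ± 0.15.

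EGFR, the receptor of epidermal growth factor, was the 1 gene called among 21 breast and mesenchymal markers tested (4.76%, against 2.22% of all genes above the sum). Its levels were 142 and 162 CPM in UT, 126 and 137 in PD, 113 and 114 in IN and 142 and 139 in P+I, so P+I lay at the level of the lower UT library and above the 97.8 CPM of the sum (departure 0.52 ± 0.08, edgeR adjusted p = 0.00138). AXL, another receptor tyrosine kinase, had 508 and 524 CPM in UT, 442 and 434 in PD, 253 and 255 in IN and 254 and 261 in P+I, the combination overlapping indisulam alone (departure 0.25 ± 0.05, edgeR adjusted p = 0.00742).

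The 16 genes raised beyond the sum had a median departure of 0.35. EXD3, an exonuclease-domain gene, had 5.31 and 4.74 CPM in UT, 7.58 and 7.55 in PD, 4.73 and 5.28 in IN and 12.9 and 12.4 in P+I, above every other library (departure 0.74 ± 0.16, edgeR adjusted p = 0.0134). CCN4, a secreted matricellular protein, had 10.1 and 12.3 CPM in UT, 26.7 and 25.4 in PD, 5.94 and 6.24 in IN and 22.2 and 21.1 in P+I, so its combination was below palbociclib alone although beyond the sum (departure 0.62 ± 0.13). TSPYL4 rose from 34.2 and 34.1 CPM to 57.0 and 56.1 in P+I, with PD and IN between 37.8 and 39.6 (departure 0.38 ± 0.07, edgeR adjusted p = 0.00799). UNC5B, a netrin receptor, had 19.5 and 19.6 CPM in UT and 36.9 and 35.9 in P+I, with PD and IN between 22.3 and 24.4 (departure 0.37 ± 0.09). OSBPL5, a lipid transfer protein, and KCNQ3, a potassium channel, departed by 0.38 ± 0.09 and 0.39 ± 0.10. All 6 lost the call in some alternative: KCNQ3 in 11, UNC5B in 9, OSBPL5 in 6, CCN4 in 3, EXD3 in 2 and TSPYL4 in 1.

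Among signalling and stress lists, departures were few. SLC7A5, the leucine transporter that is a target of ATF4, was the 1 gene called of 28 in the integrated stress response. That is 3.57%, against 2.22% of all genes above the sum. SLC7A5 had 354 and 350 CPM in UT, 275 and 284 in PD, 432 and 420 in IN and 452 and 463 in P+I. Palbociclib alone lowered it, but the combination was the highest group (departure 0.44 ± 0.05, edgeR adjusted p = 0.000195). Among 23 targets of SRF and YAP, 4 were above the sum (17.4%, against 2.22% of all genes: F3, FLNA, AXL and AJUBA) and 1, CCN2, was below it, with a median of 0.03. The 4 fell to 1 without IN replicate 2 and to 2 without IN replicate 1 or P+I replicate 2, and the call of CCN2 was lost without UT replicate 2, IN replicate 2 or P+I replicate 1. F3, tissue factor, had 454 and 429 CPM in UT, 756 and 761 in PD, 378 and 391 in IN and 877 and 817 in P+I (departure 0.36 ± 0.06, edgeR adjusted p = 0.00245). FLNA, the actin crosslinker filamin A, departed by 0.29 ± 0.06. Of 27 ERK output and feedback genes, EPHA2 (0.29) and FOSL1 (0.24) were above the sum (7.41%, against 2.22% of all genes). DUSP6, a phosphatase of ERK, was below it (-0.46 ± 0.09), which is 3.7% of the list against 2.16% of all genes. The 2 above fell to 0 without UT replicate 1, IN replicate 2 or P+I replicate 2, and to 1 without UT replicate 2, IN replicate 1 or P+I replicate 1.

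Of 22 targets of NRF2, 3 detoxifying genes were below the sum (13.6%, against 2.16% of all genes) and 0 above it, and without UT replicate 2 the 3 fell to 1. They were AKR1C2 (-0.34), AKR1C3 (-0.33) and the exporter ABCC2 (-0.28 ± 0.05), which had 191 and 184 CPM in UT, 293 and 294 in PD, 167 and 169 in IN and 222 and 211 in P+I. Of 52 interferon-stimulated genes, 3 were below it (5.77%, against 2.16%), IFI44L (-0.41), IFIT1 (-0.39) and IFIT2 (-0.34), and 1 without IN replicate 2. The call of IFI44L was lost in 6 alternatives. IFIT2 had 64.2 and 66.8 CPM in UT, 101 and 97.6 in PD, 41.8 and 42.4 in IN and 49.6 and 51.05 in P+I, so P+I lay between IN and UT while PD lay above both. Of 37 secreted factors of senescent cells, 3 were above the sum (8.11%, against 2.22% of all genes) and 1 below it (2.7%, against 2.16%). AXL and IGFBP4 (0.21) were among those above it, and ICAM1 (-0.34) was the 1 below. Of the 37 departures 29 were negative, with a median of -0.12 beside -0.00358 over all genes. No gene of that list was called without IN replicate 2 or P+I replicate 2. HMGCS1 (-0.37) was the 1 gene called of 30 in cholesterol and fatty acid synthesis (3.33%, against 2.16% of all genes below the sum). Its call was lost without UT replicate 1, IN replicate 1 or P+I replicate 1. None was called of 27 p53 targets, 18 genes of the unfolded protein response, 20 of heat shock, 8 AHR targets, 38 of lysosome and autophagy, 21 replication-dependent histones, 24 around RB and cyclin D, and 11 of MYC, MAX and MXD. Over all genes 4.38% were called, a share at which lists this short may hold none, so these zeros say little about the pathways.

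Of 78 cytosolic ribosomal proteins, 5 were above the sum (6.41%, against 2.22% of all genes: RPL13, RPS15, RPLP2, RPS2 and RPL8) and 0 below it, and 61 departures were positive, with a median of 0.04. The 5 fell to 0 without UT replicate 1, IN replicate 2 or P+I replicate 2, and were 1 to 3 without UT replicate 2, IN replicate 1, P+I replicate 1 or PD replicate 1. Without IN replicate 2, 44 departures were positive and 34 negative. RPL13 read 635 and 612 CPM in UT, 528 and 533 in PD, 589 and 557 in IN and 569 and 584 in P+I (departure 0.24 ± 0.05, edgeR adjusted p = 0.0151). Each of RPL13, RPS15 and RPLP2 lost its call when some 1 library was left out.

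**Figure D3:**
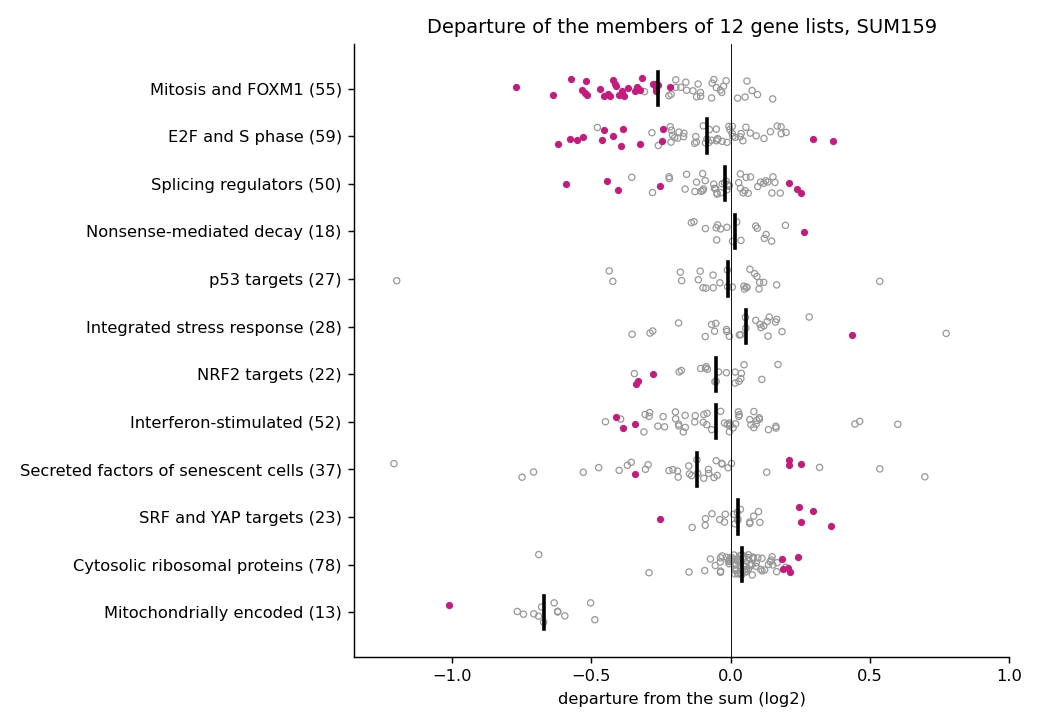
Departure from the sum (horizontal axis, log2) of the tested members of 12 gene lists in SUM159, with list sizes in parentheses. Filled points were called, open points were not, and black bars mark list medians, which lie at -0.26 for mitosis, -0.09 for E2F and S phase and -0.67 for the mitochondrially encoded genes, where only MT-ND6 is filled.

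The 13 genes encoded in mitochondrial DNA all had negative departures, with a median of -0.67, but their size depended on UT replicate 2. MT-ND6, a subunit of complex I encoded on the light strand, was the only one called, with 102 and 79.7 CPM in UT, 129 and 171 in PD, 163 and 191 in IN and 159 and 132 in P+I (departure -1.01 ± 0.16, edgeR adjusted p = 0.00277). The median departure was -0.07 in the replicate 1 libraries and -1.38 in the replicate 2 libraries, and -0.27 in the fit without UT replicate 2, in which MT-ND6 alone was called. Without UT replicate 1 it was -1.21 and all 13 were called.

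**Figure D4:**
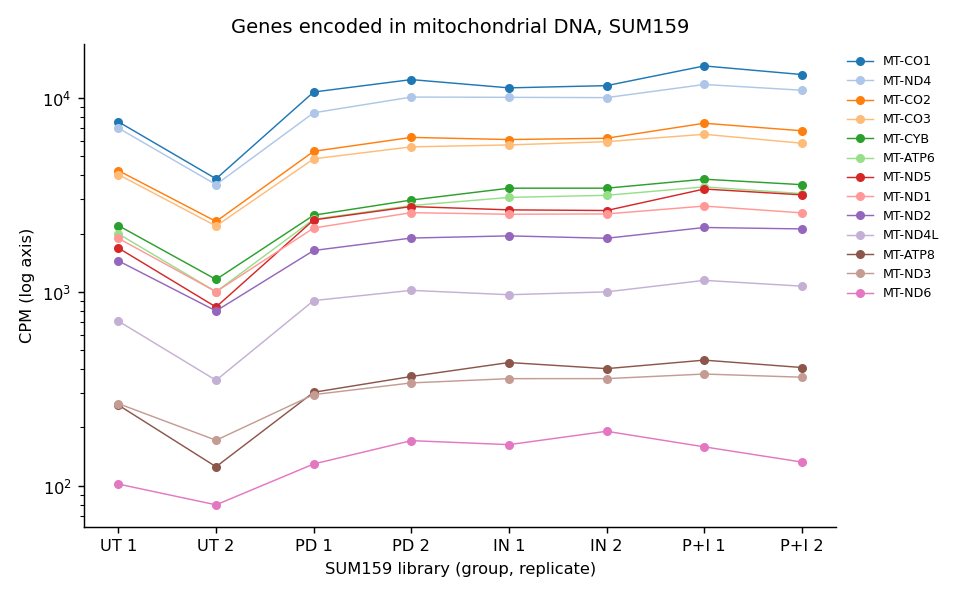
CPM (vertical axis, log scale) of the 13 mitochondrially encoded genes in the 8 SUM159 libraries (horizontal axis), with one line per gene. The lines dip at UT replicate 2, where the 13 genes sum to 17426 CPM against 33333 in UT replicate 1.

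Gene structure was described by class, with no test. The 16 genes raised beyond the sum had a median of 15.5 exons in the canonical transcript, those lowered beyond it 14.5 and those lowered short of it 12. It was 8 for genes raised short of it, 11 over all called genes and 7 over all tested genes. Of the genes raised short of the sum, 77.3% were protein-coding and 12.6% long non-coding RNAs. These shares were 81.6% and 12.2% over all tested genes, and 91.5% and 5.26% over all called genes. The genes beyond the sum in either direction were all protein-coding. Called genes had a median level of 53.2 CPM against 18.6 over all genes, and a higher level gives a smaller error.

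Set against A549, the departures in SUM159 mostly had the same sign. Of the 104 genes lowered beyond the sum, 96 had a negative departure in A549, and 47 were called below the sum there (background 2.05% of genes below the sum in A549 and 1.49% above it). The median departure of the 104 was -0.36 in A549 and -0.39 in SUM159. The signs matched in 165 of 188 genes raised short of the sum, 182 of 251 lowered short of it and 10 of 15 raised beyond it, with 28, 36 and 1 called, and none of the genes in these classes was called with the other sign. The lines share no libraries. The share of matching signs over all tested genes was not taken, so the sign counts have no background to be read against.

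The departure differed between the lines, in a test of the difference over all 16 libraries, for 21 of 17764 genes (0.118%), 7 higher and 14 lower in SUM159. KIF20A, a kinesin of cytokinesis, departed by -0.02 in SUM159 and 0.64 in A549 (difference -0.66 ± 0.10, edgeR adjusted p = 0.00712). PTTG1, securin, departed by 0.05 and 0.67, and DLGAP5, a spindle protein, by -0.07 and 0.53. MCM2 and MCM5, subunits of the replicative helicase, departed by 0.09 and 0.00 in SUM159 and by -0.47 and -0.46 in A549, and E2F1 by -0.22 and -1.02. These genes were picked from the 21 after their values were seen. The count moved widely with single libraries, from 1 without PD replicate 2 of A549 to 363 without P+I replicate 1 of A549. Within SUM159 it was 33 to 34 without PD replicate 2 or UT replicate 1, 22 without PD replicate 1 and 5 to 9 without any 1 of the others.

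**Figure D5:**
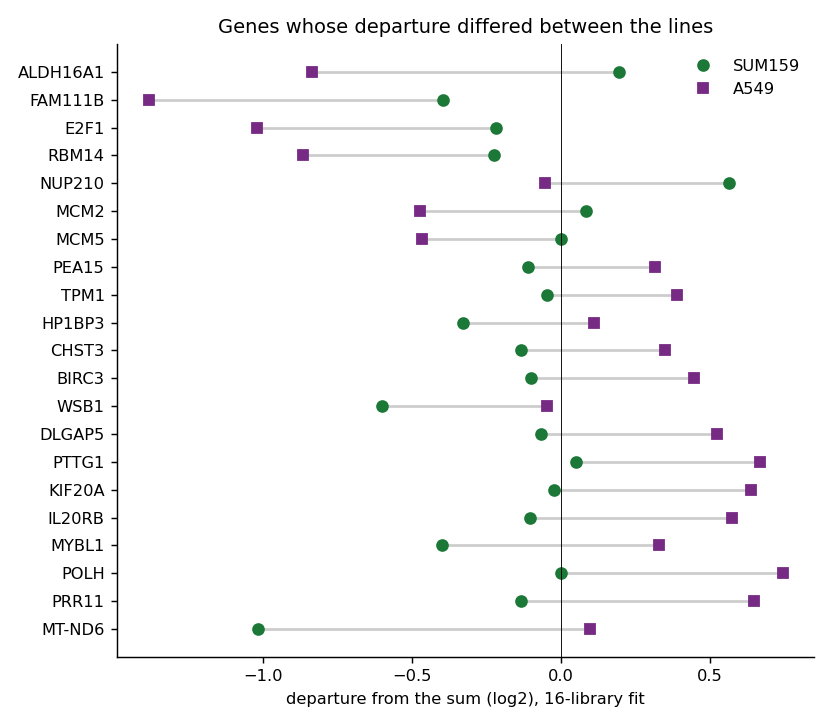
Departure from the sum (horizontal axis, log2) in SUM159 (circles) and A549 (squares) for the 21 genes whose departure differed between the lines, from 1 fit of all 16 libraries. Circles lie to the left of squares for 14 genes and to the right for 7, with MT-ND6 at the bottom and ALDH16A1 at the top.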

How the data were processed

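Per the study's methods, strand-specific poly(A) libraries were sequenced as pairs, trimmed with SeqPurge and aligned to GRCh38 with HISAT2 (version 2.2.1 in the submitters' processing notes, which also name HTSeq). The deposited values were the authors' raw read counts per Ensembl gene, 1 file a library, with no normalization and no pooling. The counter's strand setting and annotation release are not given in the sources used here, so counts of overlapping genes are uncertain. Of all reads, 3.89 to 6.78% lay in no feature, 4.38 to 5.62% were ambiguous and 4.25 to 4.81% had no unique alignment, and these stayed out of library sizes. Of 58676 gene identifiers, 58207 were matched to GENCODE 44 for symbols and coordinates.

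Counts were filtered with filterByExpr, scaled by TMM and fitted with edgeR 4.0.16 (R 4.3.3) with 1 coefficient for each group, over the 8 SUM159 libraries or, for the difference between lines, all 16. Adjusted p-values are Benjamini-Hochberg over all genes tested, at 0.05. The duplicates are technical, so p-values cover the spread between libraries only, and floors of 3 counts cover counting error only. Duplicates differed by more than sampling noise (chi-square per degree of freedom 1.62 to 9.04) and were kept as 2 libraries. CPM values are TMM-scaled, except for marker genes. Named genes were the 10 chosen around the study's findings and, in each class, the 6 protein-coding genes of largest departure. Those 6 needed a mean of at least 5 CPM. The 3 largest called in each gene list were also named. A few members of these lists are not reported here by name. The members and lists were chosen with earlier results of these data known. Alternatives were total-count and relative log expression scaling, DESeq2 1.42.0, limma-voom (limma 3.58.1), other filters, thresholds, a replicate block and leaving out each library.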

Additional observations from a re-analysis of the deposited data

Results flagged for a closer look

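The departure from the sum differed between SUM159 and A549, in edgeR's test of the difference, for 21 genes. Of these, 6 were also called in SUM159 itself. Given as SUM159 minus A549 on the log2 scale, the differences were 0.99 for FAM111B, a protease of replicating cells (-0.40 in SUM159 and -1.38 in A549), and 0.62 for NUP210, a nuclear pore glycoprotein (0.56 and -0.05). They were -0.44 for HP1BP3, a heterochromatin protein (-0.33 and 0.11), -0.55 for WSB1, a ubiquitin ligase subunit (-0.60 and -0.05), and -0.73 for MYBL1, the transcription factor A-MYB (-0.40 and 0.33). For MT-ND6 the difference was -1.11 (-1.02 and 0.10), beside the low mitochondrial level of UT replicate 2, whose part in it was not tested.

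Reads in no annotated feature were more frequent in all treated SUM159 libraries than in UT, where they made up 3.89 and 3.99% of reads. The lower library of each group had 4.96% in PD, 5.70% in IN and 5.94% in P+I. With 2 libraries a group, libraries were not tested for standing apart from their own group.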

How the results depend on the processing

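The counts of called departures and their split between above and below the sum moved with the processing. Total-count scaling called 323 above and 393 below. Requiring a departure of at least 0.5 kept 180 genes, 49 above and 131 below the sum, 23 beyond it (21 lowered, 2 raised) and 146 short of it (105 raised, 41 lowered). DESeq2's Wald test called 439, of which 195 were below the sum, 283 short of it, 100 raised short and 9 raised beyond. The fit of all 16 libraries called 463, of which 191 were above, 283 short and 129 lowered short. A filter of at least 1 count in total gave 594 below and 391 raised short of the sum, and 252 above. A filter of at least 10 counts in every library called 509 above and 312 below. Total-count scaling gave 25 raised beyond, and the median change of all genes then shifted to 0.12 with palbociclib and 0.16 with both drugs. A minimum sum of 0 or 0.5 gave 37 or 6 raised beyond, and the linear scale kept 62 lowered beyond, counting genes that changed class. Leaving mitochondrially encoded genes out before scaling, chosen after seeing the data, gave 402 lowered short. Relative log expression scaling and limma-voom left the counts within 1.5 times. Taking the sum and the departure from different replicate numbers did so too, but only over the 704 genes already called. Their departures had the same sign in both replicate numbers, so that check cannot show how far shared noise makes the classes. The cause of these shifts was not tested.

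What the replicate numbers stand for beyond a label is not given. Same-numbered libraries correlated in their deviations at -0.362 (PD with P+I) to 0.198 (PD with IN). The value was -0.237 for IN with P+I, and the source of these correlations was not tested. With a replicate block 470 genes were called, 234 of them above the sum, 300 short of it, 127 raised short and 173 lowered short, and the difference between lines kept 6 genes. With the 2 numbers of P+I crossed in the block, added after seeing the data, 1141 were called, 588 above, 553 below, 755 short, 26 raised beyond, 337 raised short and 418 lowered short.

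Leaving out 1 library gave 207 to 941 called genes, 83 to 531 above and 124 to 428 below the sum. It gave 62 to 160 beyond (53 to 137 lowered, 3 to 23 raised), 119 to 583 short (55 to 275 raised, 64 to 383 lowered) and 1 to 363 genes that differed between lines. A group reduced to 1 library is assumed to vary like the others. The single-drug and combination counts stayed within 1.5 times in every alternative run, as did the count of mitosis genes below the sum. CDK7, at a departure near 0, changed sign to 0.00477 with relative log expression, 0.00411 with DESeq2, 0.0159 with the 10-count filter, and 0.0188 without mitochondrially encoded genes. With 1 library left out it ranged from -0.0538 to 0.0242, and CCNE1 from -0.0791 to 0.00417. At 2 technical libraries a group, departures well under the 0.178 of the smallest called gene were not detectable.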
